A study of Mus musculus with 12 samples.

Results

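The genes that build cell contacts and the blastocyst cavity were compared between fertilised and cloned mouse morulae. The set holds 36 named genes, beside 19038 features tested on the arrays. A probe for a member was found through the accession on the array, and the members had 63 probes, of which 53 passed the filter on dim signals. In all, 33 of the 36 genes could be tested. Slc9a3, a sodium-proton exchanger, was not well above background on any of the 12 arrays, Itga5, an integrin alpha subunit, was on 1 of 12, and each of the 3 probes for Dsc2, a desmosomal cadherin, was on at most 4.

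Each array held amplified RNA from 1 whole embryo at the morula stage, of strain (C57BL/6 x DBA/2) F1, labelled with Cy3. The 4 IVF embryos came from in vitro fertilisation and were not treated; embryos 1 and 3 were male and embryos 2 and 4 female. The 8 clones were all male and came from the transfer of Sertoli cell nuclei, Sertoli cells being the supporting cells of the testis. At 6 to 7 h after activation, at the pronuclear stage, 4 clones were injected with a control siRNA (siCont) and 4 with an siRNA against Xist (siXist), the RNA that silences the X chromosome; all embryos were cultured in KSOM medium for 72 h. The labels call the arrays of a class biological replicates, and each array is a separate embryo. Whole embryos were measured, so fewer cells of a type and less RNA per cell cannot be told apart.

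At the morula stage the blastomeres flatten against each other, a step called compaction that depends on E-cadherin and the catenins that tie it to actin. Outer cells then form an apical domain with the Par proteins, atypical protein kinase C and ezrin, and seal their borders with tight junctions. The sodium pump moves ions across this epithelium, water follows through aquaporins, and the fluid collects as the blastocoel, while desmosomes and gap junctions strengthen and couple the cells.

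The 75th percentile of the processed signal ranged from 507 to 1133 intensity units between arrays, and the share of probes detected well above background was 50.7% to 61.4%, lowest in siCont clone 3. Levels below are log2 signals relative to that percentile of the same array, so a level of 0 sits at the percentile. Levels are compared between embryos for 1 probe and not between genes. Each class lay on a slide and scan of its own, so the effect of a class cannot be told apart from that of its slide; female and male IVF embryos shared a slide. Xist, the target of the siRNA, averaged 4.97 in siCont and 1.93 in siXist clones, and the siXist clones were all below the siCont clones (exact two-sided permutation test, p = 0.0286; adjusted p = 0.110 in the limma fit). Of the tested members, 32 of 33 were well above background on every array, the exception being Gjb5 in siCont clone 3. No member is X-linked or Y-linked.

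The upstream windows of 4 members are shown because the claudins went in both directions in the clones and because Cldn7 and Ezr were lower in each clone than in each IVF embryo. Each window is the 250 bases before the annotated start, from RefSeq on GRCm38.p6, given 5′ to 3′ on the gene's strand. Cldn4 lies at chr5:134946935-134947184 on the minus strand, Cldn6 at chr17:23679115-23679364 on the plus strand, Cldn7 at chr11:69964529-69964778 on the plus strand and Ezr at chr17:6782781-6783030 on the minus strand. Capitals mark the only match to the 3 motifs searched on both strands: CATTCC for TEAD factors, GCCNNNGGC for TFAP2 factors and AACCNGTT for grainyhead-like factors.
Cldn4: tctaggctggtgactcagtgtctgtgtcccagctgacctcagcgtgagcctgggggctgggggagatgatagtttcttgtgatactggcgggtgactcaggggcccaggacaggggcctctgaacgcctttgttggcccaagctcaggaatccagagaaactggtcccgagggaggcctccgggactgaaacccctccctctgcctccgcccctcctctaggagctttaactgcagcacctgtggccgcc
Cldn6: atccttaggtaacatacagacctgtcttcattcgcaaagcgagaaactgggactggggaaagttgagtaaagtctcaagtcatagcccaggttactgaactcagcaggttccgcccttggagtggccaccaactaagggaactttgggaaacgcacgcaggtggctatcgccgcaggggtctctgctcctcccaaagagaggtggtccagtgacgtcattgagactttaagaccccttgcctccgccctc
Cldn7: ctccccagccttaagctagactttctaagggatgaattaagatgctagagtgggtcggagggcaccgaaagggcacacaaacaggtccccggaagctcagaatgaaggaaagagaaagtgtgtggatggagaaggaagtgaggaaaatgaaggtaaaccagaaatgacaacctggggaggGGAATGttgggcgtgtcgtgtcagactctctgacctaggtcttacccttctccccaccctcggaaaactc
Ezr: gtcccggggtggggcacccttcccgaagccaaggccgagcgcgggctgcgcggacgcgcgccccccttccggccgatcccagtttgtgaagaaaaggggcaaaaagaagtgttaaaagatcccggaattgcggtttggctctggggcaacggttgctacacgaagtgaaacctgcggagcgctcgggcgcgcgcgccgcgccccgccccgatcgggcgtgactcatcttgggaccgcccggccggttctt
The Cldn7 window holds GGAATG, the TEAD letters on the other strand, 70 bases before the start; the table holds 2 windows for Cldn7, and the arrays do not tell which start was used. Over all 32851 windows of this length, 12.6% held the TEAD letters, 13.7% the TFAP2 letters and 1.79% the grainyhead-like letters. The table had 40 windows for 30 members, and 12.5%, 22.5% and 2.5% of them held the letters, in the same order. A match describes the sequence and is not a binding site, and the arrays measured no binding.

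Against the IVF embryos, 3 of the 33 tested members were on one side in all 8 clones. Cldn7, a claudin of the tight junction strands, and Ezr, which links the apical membrane to actin, were lower in every clone, and Atp1b2, a beta subunit of the sodium pump, was higher in every clone. Among all features, 3.35% separated all 8 clones from all 4 IVF embryos, 2.33% lower and 1.02% higher, against 9.09% of the members. No member passed an adjusted p of 0.05 (limma, Benjamini-Hochberg over all features) in any comparison, whereas 0.415% of all features did for siCont clones against IVF, 0.578% for siXist clones against IVF and 0.0105% for siXist against siCont clones. At an unadjusted p of 0.05, 5 of 33 members passed for siCont clones against IVF (15.2%, all features 13.6%), 2 of them higher (all features 6.84%) and 3 lower (6.73%). For siXist clones against IVF 6 passed (18.2%, all features 13.9%), 2 of them higher (5.05%) and 4 lower (8.84%). Between siXist and siCont clones 1 passed (3.03%, all features 13.9%), and it was higher in siXist clones (4.39%), with 0 lower (9.5%). The members' shares lie near those of all features in the comparisons with IVF, and below them between the clone classes. The comparisons of the clones with IVF share the same 4 IVF embryos.

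The median difference of the members was -0.02 for siCont clones and -0.14 for siXist clones from IVF, on the log2 scale, beside -0.04 and -0.23 over all features. Sizes were smaller than those of features at large: the median size of the difference was 0.36 and 0.34 for the members and 0.58 and 0.60 for all features. In siCont clones 25 of 33 members and in siXist clones 26 differed from IVF by less than 1, beside 69.3% and 69.6% of all features. Between the clone classes 30 of 33 members did, against 70.3% of all features. The precision was limited, with a median standard error of 0.52 per member: the 95% interval of the difference lay within 1 either way for 7 members in siCont clones and for 6 in siXist clones. For the other members the interval reached a 2-fold difference or more.

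**Figure D1:**
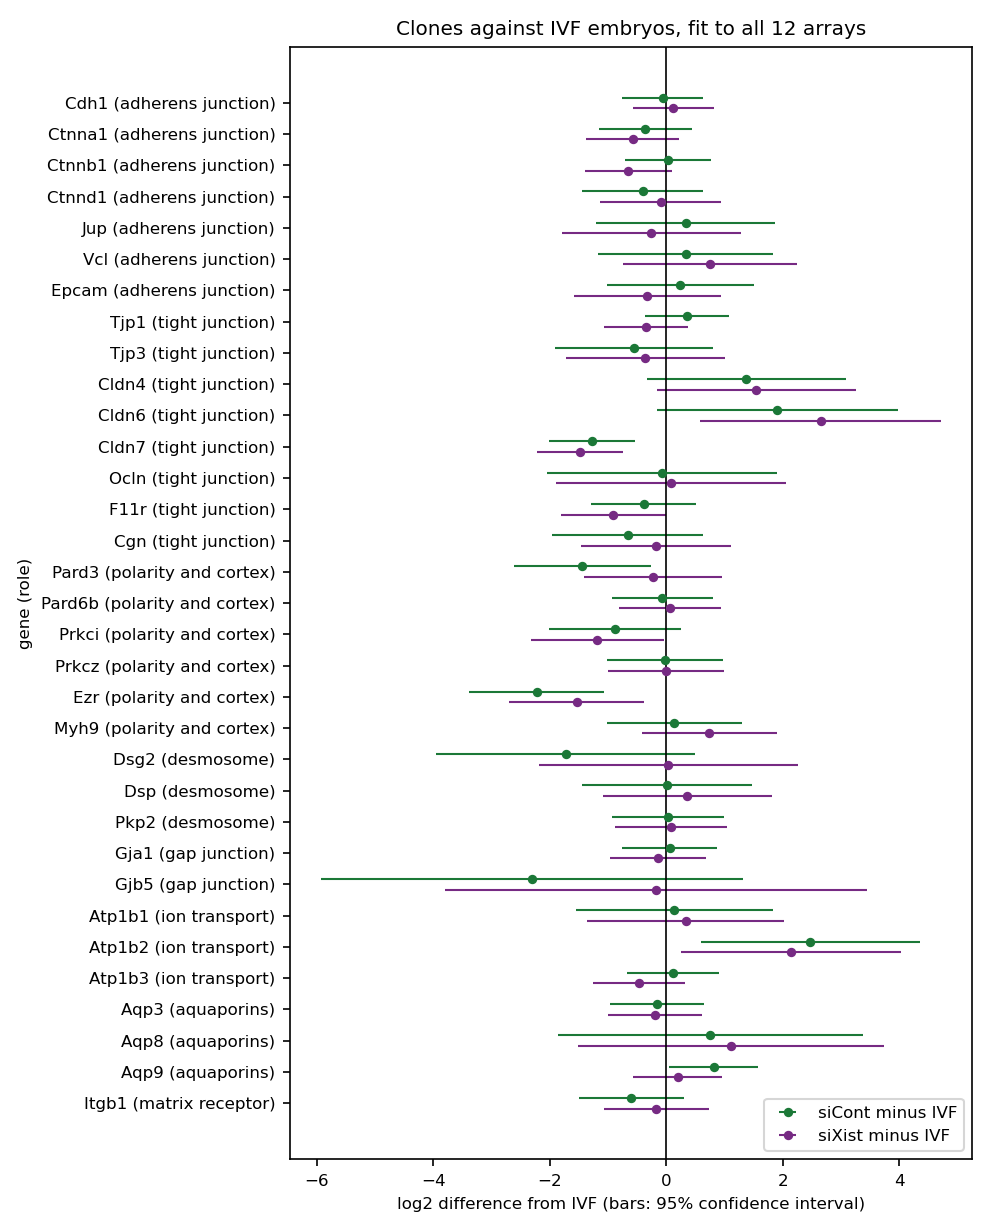
Log2 difference of siCont clones (green) and siXist clones (purple) from IVF embryos on the horizontal axis for the 33 tested members, ordered by role; points are estimates of the limma fit to all 12 arrays and bars are 95% confidence intervals. The intervals of Cldn7, Ezr and Atp1b2 lie on one side of 0 in both classes, and those of Gjb5 are the widest.

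The adherens junction genes, which hold compacted cells together, gave no call. For Cdh1, which encodes E-cadherin, the IVF mean was 4.76 ± 0.12 (SD, n = 4), the siCont mean 4.70 ± 0.55 and the siXist mean 4.89 ± 0.07. Its difference from IVF was -0.06 in siCont clones (95% interval -0.76 to 0.64) and 0.13 in siXist clones (-0.57 to 0.83). None of the 7 genes of the role passed an unadjusted p of 0.05 in any comparison between classes, and differences from IVF ran from -0.40 to 0.34 in siCont clones and from -0.65 to 0.75 in siXist clones.

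Ctnnb1, beta-catenin, had the smallest p of the role and was lowest in the siXist clones. Its level was 7.27, 7.51, 7.10 and 6.34 in IVF embryos 1 to 4. In the siCont clones it was 7.07, 7.18, 7.40 and 6.69, and in the siXist clones 6.73, 6.55, 6.18 and 6.17. All but siXist clone 1 were below every siCont clone, so these classes overlapped by 1 embryo, and IVF embryo 4 lay within the siXist range. The difference between siXist and siCont clones was -0.68 (SE 0.33, adjusted p = 0.391 in limma), and its second probe gave -0.39. Over the other genes, alpha-catenin (Ctnna1) ranged from 6.68 to 8.07 over the 12 embryos and p120-catenin (Ctnnd1) from -0.05 to 2.02. Plakoglobin (Jup), which is also a desmosomal protein, ranged from -4.47 to -1.19. Vinculin (Vcl), which couples alpha-catenin to actin, ranged from 0.33 to 3.30 and the epithelial adhesion molecule Epcam from 2.61 to 5.47; in each of these 5 genes the 3 classes overlapped.

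The tight junction genes included claudins, the membrane proteins that set what passes between cells, with opposite differences. Cldn7 was lower in clones, while Cldn4 and Cldn6 averaged higher in clones. Cldn7 stood at 6.66, 6.81, 6.81 and 6.87 in IVF embryos 1 to 4, the smallest spread of any member in that class (SD 0.09). It was 5.33, 5.36, 5.49 and 5.91 in siCont and 5.38, 5.28, 4.61 and 5.97 in siXist clones. Every clone lay below every IVF embryo. The level was 2.41-fold lower in siCont clones (95% interval 1.45 to 4.01; log2 difference -1.27, adjusted p = 0.150 in limma) and 2.78-fold lower in siXist clones (1.67 to 4.63; -1.47, adjusted p = 0.0963). The exact two-sided permutation p was 0.0286 for each, the smallest that 4 embryos against 4 allow. The clone classes differed by -0.21 (95% interval -0.94 to 0.53). The call depended on the settings: the adjusted p was 0.0484 for siCont clones with normexp background correction and quantile normalisation, and for siXist clones 0.0464 with a robust intensity trend.

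Cldn6, a claudin of early embryonic epithelia, was -1.16, -1.31, -0.24 and -2.59 in IVF embryos. It was -1.33, 2.10, -0.62 and 2.18 in siCont and -0.53, 2.08, 2.30 and 1.47 in siXist clones. Of the 8 clones 5 lay between 1.47 and 2.30, above every IVF embryo, and the other 3 within the IVF range. The difference was 1.91 in siCont clones (SE 0.93, adjusted p = 0.402) and 2.65 in siXist clones (SE 0.93, adjusted p = 0.248). Cldn4 had a mean of -1.26 ± 0.74 in the IVF class, 0.11 ± 1.57 in siCont and 0.28 ± 0.74 in siXist. All 4 siXist clones were above all IVF embryos (difference 1.55, exact permutation p = 0.0286, adjusted p = 0.401), and siCont clone 4, at -1.24, was within the IVF range. Without siCont clone 1, the highest at 2.39, the siCont difference of Cldn4 was 0.62 in place of 1.38. All 3 claudins kept their direction from IVF, in both clone classes, under quantile normalisation, normexp with quantile normalisation and the authors' deposited table, which gave 0.28 for Cldn4 in siCont clones.

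F11r, the junctional adhesion molecule JAM-A, was lower in siXist clones. Its level was 6.07, 5.75, 5.80 and 6.23 in IVF embryos, 5.51, 5.65, 6.41 and 4.74 in siCont and 4.58, 4.69, 5.42 and 5.53 in siXist clones. The siXist clones were all below the IVF embryos (difference -0.91, 95% interval -1.81 to -0.0046, adjusted p = 0.356), whereas the siCont clones overlapped both. Tjp1, the scaffold protein ZO-1, averaged 3.66 ± 0.35, 4.02 ± 0.37 and 3.32 ± 0.33 in IVF, siCont and siXist embryos, with a difference between clone classes of -0.70 (SE 0.32, adjusted p = 0.370). Its 2 probes gave opposite signs for siXist clones against IVF, -0.34 and 0.44. The scaffold proteins Tjp3 (ZO-3) and Cgn (cingulin) and the membrane protein Ocln (occludin) overlapped between classes, with ranges of -2.89 to -0.43, -2.90 to -0.01 and -0.73 to 2.97.

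**Figure D2:**
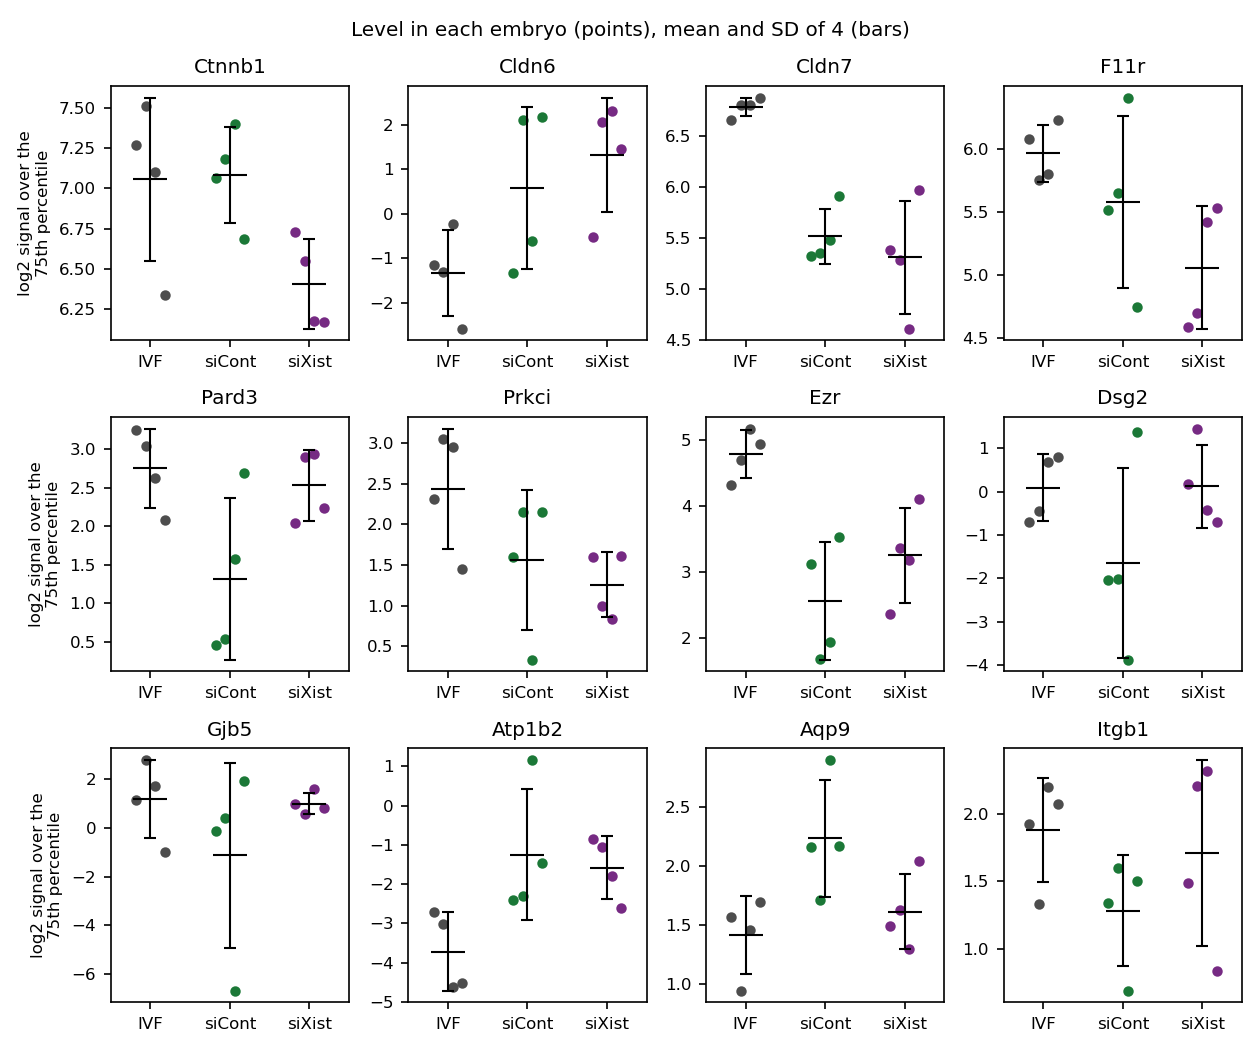
Log2 level relative to the array's 75th percentile (vertical axis, a scale of its own in each panel) of 12 members in each IVF, siCont and siXist embryo; points are embryos 1 to 4 from left to right, and bars are the mean with the SD of 4. The points of Cldn7 and Ezr in clones lie below, and those of Atp1b2 above, all IVF points.

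Among the polarity and cortex genes, Ezr was lower in clones of both classes and Pard3 in siCont clones. Pard6b and Prkcz averaged close to IVF by their brightest probes. Ezr encodes ezrin, which marks the apical cortex of compacted blastomeres. Its level was 4.32, 4.70, 5.18 and 4.94 in IVF embryos, 3.12, 1.67, 1.93 and 3.52 in siCont and 2.35, 3.37, 3.18 and 4.10 in siXist clones. The highest clone, siXist clone 4, was below the lowest IVF embryo. The level was 4.67-fold lower in siCont clones (95% interval 2.10 to 10.4; adjusted p = 0.117) and 2.89-fold lower in siXist clones (1.30 to 6.45; adjusted p = 0.236), with an exact permutation p of 0.0286 for each. The siXist clones averaged 0.69 above the siCont clones (95% interval -0.47 to 1.85), and these classes overlapped.

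Pard3, the scaffold of the apical Par complex, was 3.26, 3.05, 2.63 and 2.09 in IVF embryos and 0.46, 0.54, 1.58 and 2.70 in siCont clones. It was 2.05, 2.91, 2.94 and 2.24 in siXist clones. The siCont clones 1 to 3 were below every other embryo, and siCont clone 4 was within the IVF range. The difference was -1.44 for siCont clones against IVF (SE 0.53, adjusted p = 0.287) and 1.22 for siXist against siCont clones (SE 0.53, adjusted p = 0.350), the only member to pass an unadjusted p of 0.05 in the latter. All 5 kept probes of Pard3 were lower in siCont clones than in IVF, with differences of -0.90 to -1.44, but for siXist against siCont clones they ran from -0.41 to 1.24.

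Prkci, an atypical protein kinase C, was 2.31, 3.05, 2.95 and 1.45 in IVF embryos, 1.60, 2.16, 0.33 and 2.15 in siCont and 1.59, 1.00, 0.83 and 1.62 in siXist clones. IVF embryo 4 lay among the clones, and the other 3 IVF embryos above all of them. The difference was -0.88 in siCont clones (adjusted p = 0.480) and -1.18 in siXist clones (adjusted p = 0.342). The other atypical kinase, Prkcz, averaged 3.13 ± 0.34, 3.12 ± 0.36 and 3.13 ± 0.87 in the classes in the same order, and the interval of its siXist difference was -0.99 to 1.00. These are values of its brightest probe. Its other kept probes gave differences from IVF of -0.69 and 0.02 in siCont clones and of -0.13 and -1.33 in siXist clones. Pard6b, their partner in the Par complex, averaged 4.03 ± 0.21, 3.96 ± 0.66 and 4.09 ± 0.45. Myh9, the heavy chain of non-muscle myosin that contracts the cortex, averaged 3.54 ± 0.39, 3.68 ± 1.12 and 4.28 ± 0.39, with a siXist difference of 0.74 (SE 0.52, adjusted p = 0.540).

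Markers of embryonic lineages and of other cells were measured beside these results. Of 6 tested pluripotency markers 0 passed the test in any class comparison (limma, adjusted p of 0.05). Over these 6 the mean log2 level ranged from 3.32 to 3.82 in IVF embryos, 1.35 to 2.93 in siCont clones and -0.04 to 2.04 in siXist clones. By this mean every clone was below every IVF embryo. With Sox2 left out of the mean, this held for every clone except siXist clone 1, which was above IVF embryo 3. Sox2 was well above background in 4 IVF embryos, 1 siCont clone and 1 siXist clone, and fell to -8.86 in siXist clone 3. Klf2 alone of the 6 averaged higher in siCont clones than in IVF, by 0.20, and all 6 averaged lower in siXist clones. Their summed signal, in units of the array's 75th percentile, ranged from 167 to 194 in IVF embryos, 103 to 232 in siCont clones and 54.9 to 177 in siXist clones. Of 10 trophectoderm markers, the outer lineage that forms the cavity, 1 passed the test, Eomes. It was lower in siXist clones (adjusted p = 0.0318 in limma, and 0.0600 for siCont clones). Eomes was well above background in 4 IVF embryos, 1 siCont clone and 1 siXist clone, so it passed the filter only through the IVF embryos. The test took most clone values at background as measured, so the size of the difference is not known. Eomes and Cdx2 were lower in every clone than in every IVF embryo, as 2.33% of all features were. Other markers of the list went the other way. Gata2 was well above background in 0 IVF embryos, 3 siCont clones and 2 siXist clones, so it passed the filter only through the siCont clones. Its averages of 6.29 above IVF in siCont and 3.83 in siXist clones use IVF values at background, so their size is not known. Krt18 averaged 1.08 and 0.87 above IVF. The median difference of the 10 from IVF was 0.13 in siCont and -0.27 in siXist clones. Cdx2 averaged 4.72 in IVF embryos, -1.05 in siCont clones and 2.85 in siXist clones (adjusted p = 0.291 and 0.712 in limma). The siCont clones were far apart in Cdx2, at 3.44, -2.93, -7.87 and 3.18, and the value of siCont clone 3 was not well above background. The summed signal of the 10 overlapped between the classes and ranged from 157 to 266, 198 to 262 and 139 to 290. The markers of primitive endoderm (5 of 7 tested, 0 called) had summed signals of 191 to 273, 74.1 to 206 and 101 to 181, with Foxa2 not well above background on any array. By this sum every siXist clone was below every IVF embryo, while the siCont clones overlapped with IVF. Sertoli cell markers (7 of 11 tested) summed to 8.71 to 17.3, 5.06 to 14.7 and 10.2 to 20.7, with Amh not well above background on any array, and cumulus cell markers (4 of 8 tested) summed to 2.31 to 4.57, 4.05 to 8.87 and 3.39 to 7.16. The 7 tested oocyte markers summed to 4.57 to 9.52 in IVF embryos, 10.7 to 13.9 in siCont clones and 4.25 to 9.40 in siXist clones, so every siCont clone was above every IVF embryo. Gdf9 had the brightest signal of the 7 in every embryo, so the sum largely follows it. Of the 7, Oosp1 alone passed the test, as higher in siXist clones (adjusted p = 0.0444). Oosp1, Gdf9 and Zp2 were each higher in every siCont clone than in every IVF embryo, as 5.53% of all features were. Bmp15 and Nlrp5 averaged lower in siCont clones than in IVF, with differences of -1.45 and -0.34. The 3 tested markers of the zygote and 2-cell stage gave 0 calls and summed to 0.781 to 2.09, 0.106 to 13.9 and 0.0199 to 0.772. In this sum too every siXist clone was below every IVF embryo, the closest only just, while the siCont clones overlapped with IVF. The part of lineage or stage in the results for the junction genes was not tested.

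Desmosomes link intermediate filaments between the cells of the outer layer. Dsg2, a desmosomal cadherin, was -0.70, -0.46, 0.69 and 0.80 in IVF embryos and 0.16, 1.45, -0.43 and -0.70 in siXist clones. In siCont clones it was -2.03, -2.03, -3.88 and 1.37. The siCont clones 1 to 3 were the lowest embryos and siCont clone 4 was above all IVF embryos. The difference of siXist from siCont clones was 1.77 (SE 1.00, adjusted p = 0.437), 1.02 without siCont clone 3 and 2.77 without siCont clone 4. The 3 kept probes of Dsg2 did not give 1 direction for siCont clones against IVF, at -1.73, 0.24 and 1.49. Dsp, the desmoplakin that anchors keratin, and Pkp2, a plakophilin, overlapped between classes, with differences from IVF of 0.02 and 0.03 in siCont and 0.36 and 0.08 in siXist clones.

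The gap junction genes gave no call. Gja1, connexin 43, averaged 6.01 ± 0.30, 6.07 ± 0.37 and 5.87 ± 0.60. Gjb5, the connexin of trophoblast, was 1.15, 2.82, 1.74 and -0.99 in IVF embryos, -0.12, 0.39, -6.71 and 1.93 in siCont and 1.00, 0.58, 1.60 and 0.83 in siXist clones. The value of siCont clone 3 was not well above background, and the other 3 siCont clones were within the IVF range. The difference of -2.31 in siCont clones (adjusted p = 0.565) was -0.45 without that clone.

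The cavity genes gave no call. Atp1b1, a beta subunit of the sodium pump like Atp1b2, averaged 3.61 ± 0.44, 3.75 ± 1.14 and 3.95 ± 1.42 in IVF, siCont and siXist embryos, and Atp1b3, a further one, 5.82 ± 0.14, 5.94 ± 0.58 and 5.36 ± 0.39. Atp1b2 was -2.72, -3.01, -4.63 and -4.53 in IVF embryos, -2.40, -2.31, 1.18 and -1.46 in siCont and -0.85, -1.05, -1.80 and -2.61 in siXist clones. All clones were above all IVF embryos, siXist clone 4 and IVF embryo 1 being the closest, and siCont clone 3 was the highest. The level was 5.56-fold higher in siCont clones (95% interval 1.51 to 20.5, adjusted p = 0.261 in limma) and 4.42-fold higher in siXist clones (1.20 to 16.3, adjusted p = 0.301), with an exact permutation p of 0.0286 for each. Its signal was dim in the IVF embryos, and the size of the difference depended on the processing. With normexp and quantile normalisation it was 1.59 in siCont and 1.27 in siXist clones, and with quantile normalisation alone 2.43 and 2.11. Without siCont clone 3 the siCont log2 difference was 1.67 in place of 2.47, and over the scalings tried the smallest were 1.38 in siCont clones (the authors' deposited table) and 1.27 in siXist clones (normexp with quantile normalisation).

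Of the aquaporins, Aqp3, a channel for water and glycerol, averaged 5.51 ± 0.21, 5.35 ± 0.40 and 5.32 ± 0.58 in IVF, siCont and siXist embryos. Aqp9 was 1.57, 0.94, 1.46 and 1.69 in IVF embryos, 2.16, 1.71, 2.90 and 2.17 in siCont and 1.49, 1.63, 1.30 and 2.04 in siXist clones. The siCont clones were all above the IVF embryos, the lowest only just (difference 0.82, SE 0.34, adjusted p = 0.334). The other 2 probes of Aqp9 were lower in siCont clones, at -0.58 and -0.36, and the mean of the 3 probes gave -0.04. Aqp8 was near the limit of detection, from -4.98 to -4.46 in IVF embryos and from -4.41 to -3.58 in siCont clones, which did not overlap (difference 0.76, adjusted p = 0.812). That difference was -0.34 with the authors' deposited table. In siXist clones Aqp8 was -4.87, -5.40, 0.74 and -5.20, and its difference from IVF was 1.11, or -0.37 without siXist clone 3.

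Itgb1, the integrin beta subunit through which outer cells later meet the matrix, was 1.92, 1.33, 2.19 and 2.07 in IVF embryos, 1.34, 1.60, 0.69 and 1.50 in siCont and 1.49, 2.20, 2.31 and 0.83 in siXist clones. The classes overlapped, and the siCont difference was -0.60 (SE 0.40, adjusted p = 0.549).

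**Figure D3:**
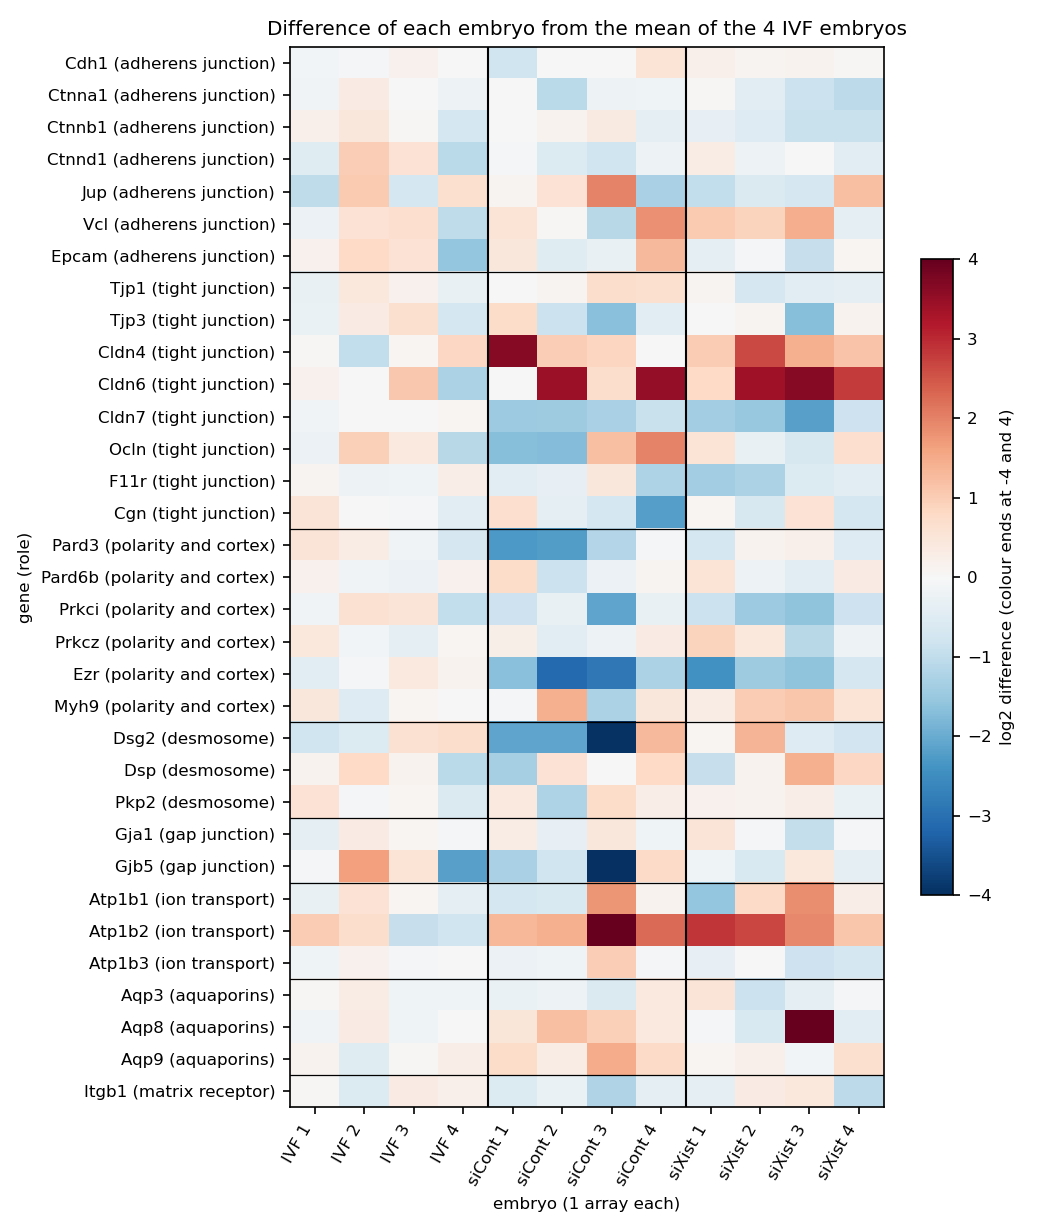
Difference of each embryo (columns) from the mean of the 4 IVF embryos for the 33 tested members (rows, by role), in log2 units as colour, with red higher and blue lower. Cldn7 and Ezr are blue and Atp1b2 is red in all 8 clones. In siCont clone 3, 15 members are beyond 1 either way (45.5%, all features 50%), and in siXist clone 3, 13 members are (39.4%, all features 53.6%).

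Embryos of 1 class differed more among the siCont clones. The SD over siCont clones was above that over IVF embryos in 30 of 33 members (90.9%, all features 73%), and the SD over siXist clones was so in 17 of 33 (51.5%, all features 67.9%). The median SD of the members was 0.44 in IVF embryos, 0.86 in siCont and 0.58 in siXist clones, beside 0.52, 0.78 and 0.72 over all features. Cdh1 had the smallest SD in siXist clones, 0.07, and Gjb5 the largest in siCont clones, 3.82. In siCont clone 3, 45.5% of the members and 50% of all features were beyond 1 from the IVF mean, and in siXist clone 3 39.4% and 53.6%. In the other clones 18.2% to 33.3% of the members were, beside 31.4% to 39.4% of all features. In single IVF embryos 3.03% to 21.2% of the members were, beside 14.8% to 21.8% of all features. Each IVF embryo is part of the IVF mean, which makes its own distance smaller than that of a clone.

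Between siXist and siCont clones no member was apart, whereas 8.03% of all features did not overlap. Members apart from IVF numbered 5 in siCont clones (15.2%, all features 10.3%), 3 higher (5.53%) and 2 lower (4.79%). In siXist clones they also numbered 5 (15.2%, all features 13.1%), 2 higher (3.48%) and 3 lower (9.58%). The median difference between the clone classes was 0.15 for the members and -0.21 for all features, and 20 of the 33 members were higher in siXist clones, against 39.8% of all features.

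Female and male IVF embryos, 2 of each, differed in 0 of 33 members past the adjusted threshold, which 0.0158% of all features passed. No member passed an unadjusted p of 0.05 either, and 1.53% of all features did. The levels did not overlap for 6 members (18.2%, all features 28.6%): Jup, Atp1b3 and Aqp8 were higher in females (all features 16.9%), and Cldn6, Myh9 and Pkp2 lower (11.7%). A comparison of 2 embryos with 2 cannot reach an exact permutation p below 0.333.

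Where a gene had several probes, they often disagreed. Of 13 members with more than 1 kept probe, 10 had probes of 1 sign in siCont clones against IVF, 5 in siXist clones against IVF and 9 between the clone classes. Cldn7, Ezr and Atp1b2 each had 1 probe, so their difference has no second probe behind it.

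**Figure D4:**
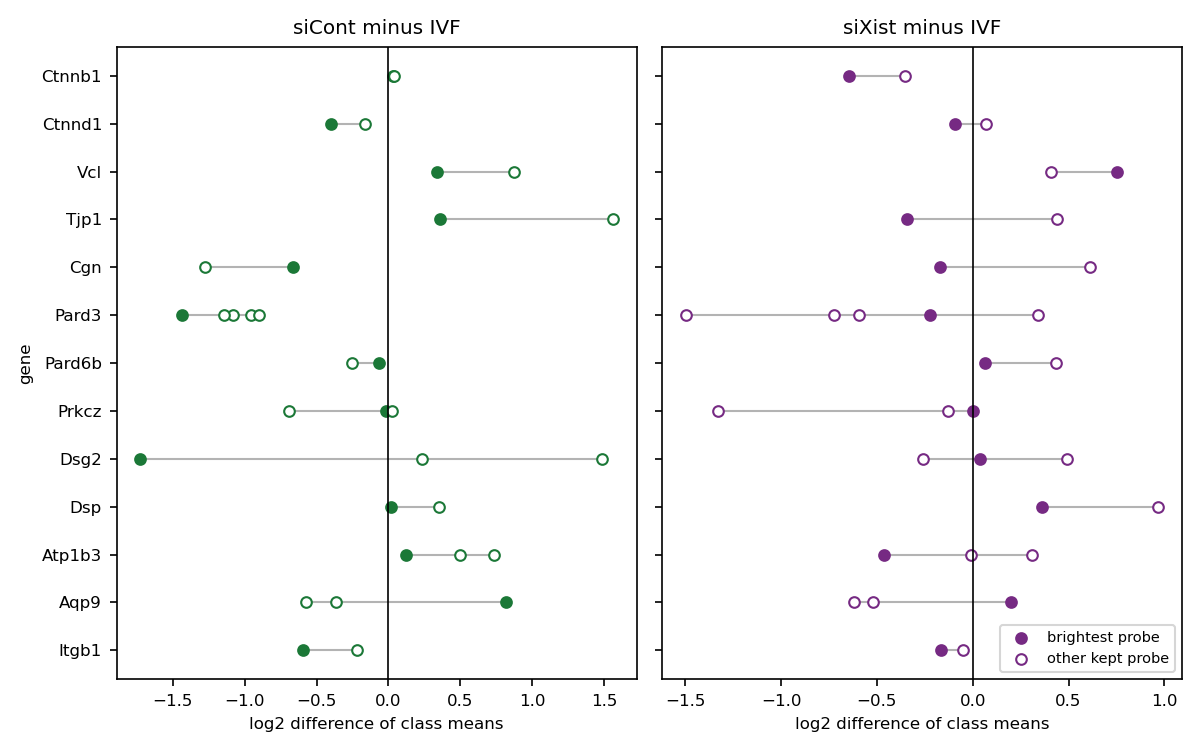
Log2 difference of class means from IVF (horizontal axis) for each kept probe of the 13 members with more than 1, for siCont clones (left) and siXist clones (right); filled points are the brightest probe, which stands for the gene, and open points the others. All 5 Pard3 probes are below 0 in siCont clones, and those of Aqp9 and Dsg2 lie on both sides.

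A wider list of 110 other genes of the same structures, of which 75 were tested, gave 1 call. It was for siXist clones against IVF, where 0.578% of all features were called. Ppl, periplakin, which links desmosomes and keratin, rose in siXist clones. Its level was -3.69, -3.07, -1.73 and -4.55 in IVF embryos, 1.09, 0.97, -1.41 and 0.99 in siCont and 0.63, 1.82, 1.46 and 0.99 in siXist clones. Every clone was above every IVF embryo, as for 1.02% of all features. The log2 difference was 4.48 in siXist clones (SE 0.68, adjusted p = 0.0249 in limma) and 3.67 in siCont clones (adjusted p = 0.0577). The siXist call was lost in 8 of 26 alternatives: without IVF embryo 1 (adjusted p = 0.0901), IVF embryo 4 (0.0684), siXist clone 2 (0.0667), siXist clone 3 (0.0754) or siXist clone 4 (0.0508), with the authors' deposited table (0.121), with a block for replicate number (0.0961) and with male IVF embryos only (0.158). The siCont difference passed in 5 of 26 alternatives, with adjusted p between 0.0210 (without siCont clone 3) and 0.301 (male IVF embryos only) over all of them.

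In the same list, siCont clones had 5 higher and 4 lower genes past an unadjusted p of 0.05, and siXist clones 3 higher and 6 lower, of 75. Over all features 6.84% were higher and 6.73% lower for siCont against IVF, and 5.05% higher and 8.84% lower for siXist against IVF. Between the clone classes 1 was higher and 6 lower in siXist clones, beside 4.39% and 9.5% of all features. The counts of the list are near or below these shares. The smallest p among the other tight junction genes was that of Cldn5, known from endothelial barriers, which averaged -5.75 in IVF embryos, -4.55 in siCont and -1.88 in siXist clones (difference 3.88, adjusted p = 0.139); it was well above background in 3 of 4 IVF embryos. Fxyd4, a regulator of the sodium pump, averaged 2.57, 2.24 and 0.91 in the classes in that order, and each siXist clone was below each IVF embryo (difference -1.66, adjusted p = 0.171). The integrin beta subunit Itgb5 averaged 4.63, 3.89 and 3.27 (siXist difference -1.36, adjusted p = 0.296). The kinase Mark3, which acts on cell polarity, was higher in siCont clones than in IVF, with a difference of 0.80 (adjusted p = 0.331), and the water channel Aqp2 lower in siXist than siCont clones, with one of -0.66 (adjusted p = 0.401). Cdh2, N-cadherin, was well above background in 3 IVF embryos, 2 siCont clones and 0 siXist clones (adjusted p = 0.320 for siXist clones against IVF).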

How the data were processed

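Per the file headers, the deposited scanner files hold intensity values written by Agilent Feature Extraction 10.5.1.1 (grid on mm9), with background removed within each array. The authors' deposited value table is in log2 units and equals log2 of the processed signal shifted by 1 constant for each array and centred per probe; the basis of the constant is not given in the sources used here. Values were the log2 processed signal minus the array's 75th percentile. Outlier spots were left out, spots of a probe averaged, and 24840 of 41174 probes kept that were well above background on at least 3 of 4 arrays of a class; the brightest kept probe stood for a gene. Accessions matched a RefSeq table (GRCm38.p6) for 65.3% of probes. All 12 arrays were fitted in limma 3.58.1 (R 4.3.3) with 4 means (male IVF, female IVF, siCont, siXist; 8 residual degrees of freedom), sexes weighted equally, and Benjamini-Hochberg adjustment over 19038 features. Array number limits the precision. The fit was tested on simulated data. The members, lists and marker sets were chosen with earlier results of these data known. Every array is given for members past an unadjusted p of 0.05 in a class comparison and for the member with the smallest p of each role; of the wider list, called genes and the smallest p of each role are named. A gene that this rule named is not reported here, and counts include it. The promoter windows and motifs and the embryo values of Cldn4 and Aqp8 were chosen after values were seen. Other settings tried were quantile normalisation with and without normexp (offset 50), the percentile over probes detected on all arrays, the authors' table, no or a stricter filter (6 arrays), the mean of probes, a floor under dim signals, no sex term, only the classes compared, a robust trend, array weights, male IVF embryos only, dropping each array in turn, and a block for replicate number. Figures were drawn with matplotlib 3.10.9.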

Additional observations from a re-analysis of the deposited data

Results flagged for a closer look

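In 99 sets of 4 embryos, a member and a class each, 3 had an embryo far from the other 3 by Dixon's criterion, and chance gives about 1 in 20. Tjp3, the ZO-3 scaffold, was -2.89 in siXist clone 3, while the nearest siXist clone was at -1.16 (gap over range 0.935). Atp1b3, a sodium pump subunit, was 6.81 in siCont clone 3 beside 5.73 in the nearest siCont clone (0.894). Aqp8 was 0.74 in siXist clone 3 beside -4.87 in the nearest (0.913). Of the members left out of the test, Dsc2 was well above background in 3 clones and 1 IVF embryo, and Itga5 in 1 clone and 0 IVF embryos.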

How the results depend on the processing

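No member was called under most of the 26 alternatives run. With normexp and quantile normalisation 1 member was called for siCont clones against IVF, and with a robust trend or with array weights 1 for siXist clones against IVF; each was Cldn7. Leaving out each array in turn gave 0 to 0 members called in every comparison. Ezr, Atp1b2, Cldn7, Pard3 and Cldn6, in the comparisons that named them, kept their direction under every alternative run. The authors' table reversed Ctnnb1 between clone classes (0.46), Aqp9 in siCont clones (-0.28), Mark3 in siCont clones (-0.30) and Aqp2 between clone classes (0.47); the mean of kept probes reversed Aqp9 (-0.040). That table moved the median of all features to -1.13 for siCont clones, -0.19 for siXist clones and 0.93 between the clone classes, and turned the sign of 26 of 99 member differences; relative to those medians the members stood 0.02, 0.09 and 0.36 higher, as with the percentile scaling. Features called ranged from 12 to 110 (79 in the main setting), 13 to 248 (110) and 0 to 56 (2) over the alternatives. With the replicate number as a block, 0 members and 12, 13 and 0 features were called. Same-numbered embryos of different classes did not deviate together (correlations -0.15 to 0.06). These values gave no sign that the numbers pair the embryos, but a small shared effect could be missed. With 4 embryos a class, each on its own slide, only large differences could pass.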
